A study of Mus musculus with 20 samples.

Results

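The transcriptome described here is that of untouched melb-a cells, a line of mouse melanoblasts that grows without limit in culture. Its members are the 4 libraries of 20 whose columns carry no hairpin name and which the labels call parental: these cells received neither lentivirus nor puromycin. The study as a whole asked what loss of the histone chaperone HIRA does to such cells, and its other 16 libraries carry control or Hira hairpins. All cells were labelled wild type and grew in RPMI medium with 10% serum, L-glutamine, 10 ng/ml SCF (the ligand of KIT) and 40 pM Fgf2. Poly(A) RNA was sequenced, and the labels call the 4 libraries biological replicates. All 4 are cultures of 1 line, so their spread does not cover differences between lines or animals.

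Melanoblasts are the migrating precursors of pigment cells. They leave the neural crest, spread through the skin under KIT and endothelin signals, and settle in hair follicles, where they become melanocytes or melanocyte stem cells. MITF is the transcription factor at the centre of this lineage; SOX10 and PAX3 act on its gene, and MITF acts on the genes of pigment synthesis through short sequence motifs in their promoters. Pigment is made in melanosomes by the enzymes tyrosinase (Tyr), TYRP1 and dopachrome tautomerase (Dct), on a fibril built from PMEL.

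Levels are given in TPM (transcripts scaled to a common library total), which take gene length into account and can be compared between genes. A gene counted as on when its mean over the 4 libraries was 1 TPM or more. By this measure 11147 of 29956 gene rows (37.2%) were on, and among protein-coding rows 10159 of 20475 (49.6%). Single libraries had between 11050 and 11234 genes at 1 TPM or more, and 10527 genes passed in every library. Totals ran from 17.4 to 20.7 M estimated counts per library (M, 1e6; mean 19.3 ± 1.52 M, SD, n = 4). The other 620 genes on by their mean were under 1 TPM in at least 1 library, so their state rests on the averaging.

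The label was checked against the markers Mitf, Kit, Dct, Pmel and Sox10. Mitf stood at 124, 183, 149 and 160 TPM in replicates 1 to 4, a mean of 154 ± 24.3 (SD, n = 4), which is rank 804 of all rows. Kit, the SCF receptor, was at 87.1, 118, 82.0 and 134 TPM (105 ± 25.0). Dct was at 506, 390, 368 and 334 TPM (400 ± 74.6), and Pmel at 76.1, 74.6, 63.3 and 94.8 TPM (77.2 ± 13.1). These 4 markers were on in every library, and none varied as much as 2-fold between libraries.

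Sox10 went against the label in 3 of 4 libraries. Its level was 0.0995, 0.0871, 11.2 and 0.0630 TPM in replicates 1 to 4. The mean of 2.85 TPM therefore comes from replicate 3, and without that library it was 0.0832 TPM. Mitf in replicate 3 lay inside the range of the other libraries. Only 0.82% of the 31-base words in Sox10 transcripts (GENCODE M21) also occur in other genes. A small share does not show that a level is sound. Idh3a, a citrate cycle gene listed at 0 in all 4 libraries, shares 0%. The annotation behind the deposited values is not given. What sets replicate 3 apart was not tested, and Sox10 is treated below as a gene whose state these files do not settle.

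**Figure D1:**
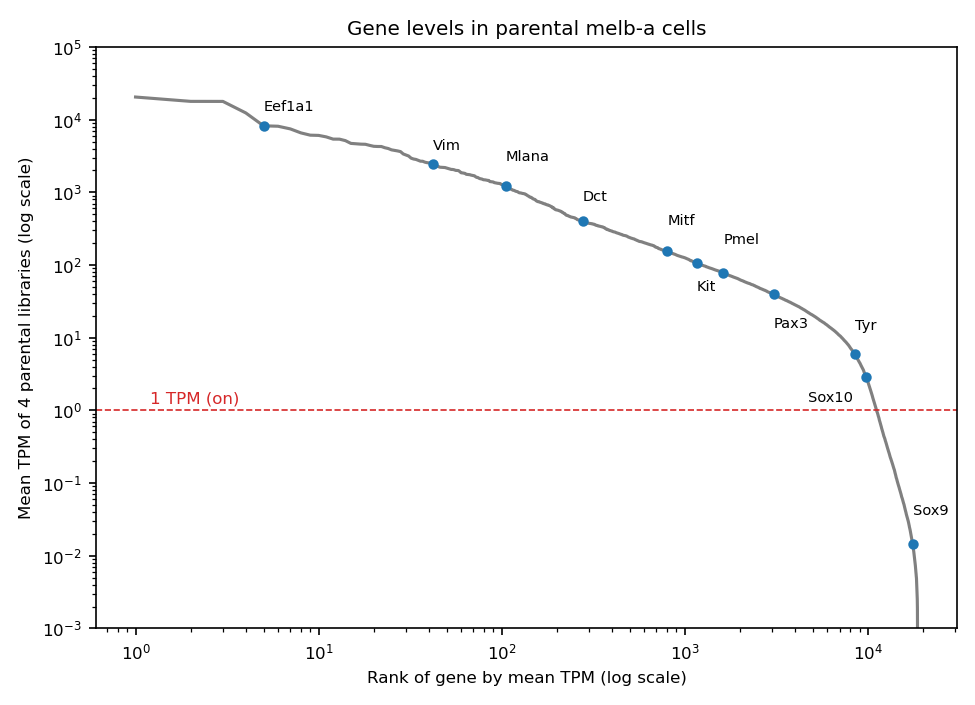
All genes with a mean above 0, ordered by mean TPM over the 4 parental libraries (vertical axis, log scale) against rank (horizontal axis, log scale). The dashed line is 1 TPM. The named points run from Eef1a1 at 8234 TPM through Mlana at 1233 and Mitf at 154 to Tyr at 5.88, with Sox10 at a mean of 2.85 and Sox9 under the line at 0.0143.

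The sequences shown next are those of the melanin enzyme genes whose promoter holds the long motif, and of Mitf. In the 250 bases before the transcription start, as RefSeq places it on GRCm38.p6, TCATGTGCT (the M-box, a motif that MITF is known to bind) occurred in Tyr, Tyrp1 and Dct and in no other promoter matched to the pigment list. They lie at chr7:87493513-87493762 (minus strand), chr4:80833963-80834212 (plus strand) and chr14:118052247-118052496 (minus strand). The Mitf start shown is 1 of 3 in the RefSeq table, at chr6:97991533-97991782 (plus strand), and holds TGACGTCA, the cyclic AMP response element. Sequences run 5′ to 3′ toward the start, with the motif in capitals.
Tyr: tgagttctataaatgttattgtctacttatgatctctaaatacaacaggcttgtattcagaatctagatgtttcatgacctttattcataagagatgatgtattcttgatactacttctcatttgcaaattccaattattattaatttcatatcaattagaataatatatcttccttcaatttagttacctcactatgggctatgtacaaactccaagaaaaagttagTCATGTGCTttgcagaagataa
Tyrp1: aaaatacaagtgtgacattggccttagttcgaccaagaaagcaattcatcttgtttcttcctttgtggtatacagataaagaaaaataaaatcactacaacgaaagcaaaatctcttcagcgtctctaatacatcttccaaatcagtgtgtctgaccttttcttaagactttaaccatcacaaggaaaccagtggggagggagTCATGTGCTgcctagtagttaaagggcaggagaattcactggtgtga
Dct: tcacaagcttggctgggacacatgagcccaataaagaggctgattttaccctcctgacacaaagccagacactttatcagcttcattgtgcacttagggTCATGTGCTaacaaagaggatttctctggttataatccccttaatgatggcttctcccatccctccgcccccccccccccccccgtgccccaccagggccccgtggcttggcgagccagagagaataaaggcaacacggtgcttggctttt
Mitf: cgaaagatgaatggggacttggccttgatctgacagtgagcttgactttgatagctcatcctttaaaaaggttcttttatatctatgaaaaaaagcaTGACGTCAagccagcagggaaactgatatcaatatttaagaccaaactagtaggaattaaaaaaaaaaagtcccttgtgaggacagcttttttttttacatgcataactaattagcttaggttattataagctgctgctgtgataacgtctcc

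The M-box lay 22 to 14 bases before the RefSeq start in Tyr, 47 to 39 in Tyrp1 and 151 to 143 in Dct. For Tyrp1, GENCODE M21 starts the gene at chr4:80834123, inside the stretch shown and upstream of the M-box. Searched on both strands, TCATGTGCT was in 110 of all 32851 RefSeq promoters of this length (0.335%). Of the 39 pigment genes, 32 have an entry, with 35 promoters. The motif was in 3 of these (8.57%), those of Tyr, Tyrp1 and Dct shown above. It is a motif already tied to genes of pigment synthesis, so the difference in share is no result of these data. The core CATGTG, which the longer motif contains, was in 12.3% of all promoters and in 12 of the 35 pigment promoters (34.3%). Neither was more frequent where genes were on. CATGTG was in 7.18% of promoters of genes on and in 12.7% of those of genes off. For TCATGTGCT these shares were 0.115% and 0.331%. TGACGTCA was in 1.55% of all promoters. A match describes these letters only: the genes that share the M-box were as far apart in level as 5.88 TPM for Tyr and 1113 TPM for Tyrp1. Pmel, Mlana and Sox10 have no entry in the table.

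Pigment and melanosome genes were on almost throughout, with 37 of 39 at 1 TPM or more (94.9%, beside 49.6% of all protein-coding rows). The highest was Mlana, a melanosome membrane protein, at 1171, 1132, 1265 and 1363 TPM (rank 105), level with Tyrp1 within the spread. Tyrp1 itself stood at 543, 1291, 1123 and 1497 TPM, so replicate 1 was low (1113 ± 410 over all 4). Tyr, which catalyses the first and rate-limiting step of melanin synthesis, was at only 5.35, 6.20, 6.25 and 5.72 TPM (5.88 ± 0.426). Tyr varied little between libraries and overlapped with neither of the other melanin enzymes. The mean of Tyrp1 was 189 times that of Tyr (102 to 262 times in single libraries), and the mean of Dct was 68.0 times that of Tyr (58.5 to 94.5 times). Tyrp1 exceeded Dct in all 4 libraries, by 1.07 times in replicate 1 and by up to 4.48 times elsewhere.

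Among structural and transport genes of the melanosome, Mlana exceeded Pmel 16.0 times by mean (14.4 to 20.0 in single libraries). Cd63, a tetraspanin that sorts PMEL, was at 875, 744, 707 and 658 TPM, and Gpnmb, a relative of Pmel, at 313, 409, 336 and 505 TPM. Ion and solute carriers of the organelle separated into those on and those off. Slc24a5 (163 ± 26.3 TPM) and Slc45a2 (133 ± 17.8 TPM) were high, while Oca2 (0.266 TPM) and Slc24a4 (0.0973 TPM) were the list's only members under 1 TPM. Slc24a5 shares 40.2% of its 31-base words with other genes, so its level is uncertain. The machinery that carries melanosomes to the cell edge was on as a whole: Rab27a at 90.9 ± 12.7 TPM, its motor Myo5a at 79.6 ± 18.7 and their linker Mlph at 74.2 ± 13.3. Rab38 (95.7 TPM) and Rab32 (71.7 TPM), which deliver enzymes to the melanosome, lay in the same range.

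Trafficking complexes known from Hermansky-Pudlak syndrome were on without exception, from Bloc1s1 at 226 TPM to Bloc1s3 at 3.37 TPM. Bloc1s1 shares 53.1% of its 31-base words with other genes, so its level is uncertain. Bloc1s6 was among the steadiest genes measured, at 21.5, 21, 21 and 21.5 TPM. The G protein-coupled receptors of pigment cells were lower than the structural genes. Mc1r, the receptor for melanocortin, was at 30.5, 15.7, 18.5 and 17.4 TPM and Gpr143, a melanosome receptor, at 20.4, 25.8, 24.1 and 28.9 TPM. Close to the limit were Tpcn2, an organelle channel (0.893 to 1.09 TPM), and Trpm1 (0.875, 2.84, 0.615 and 0.541 TPM), whose mean passed through replicate 2 alone.

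**Figure D2:**
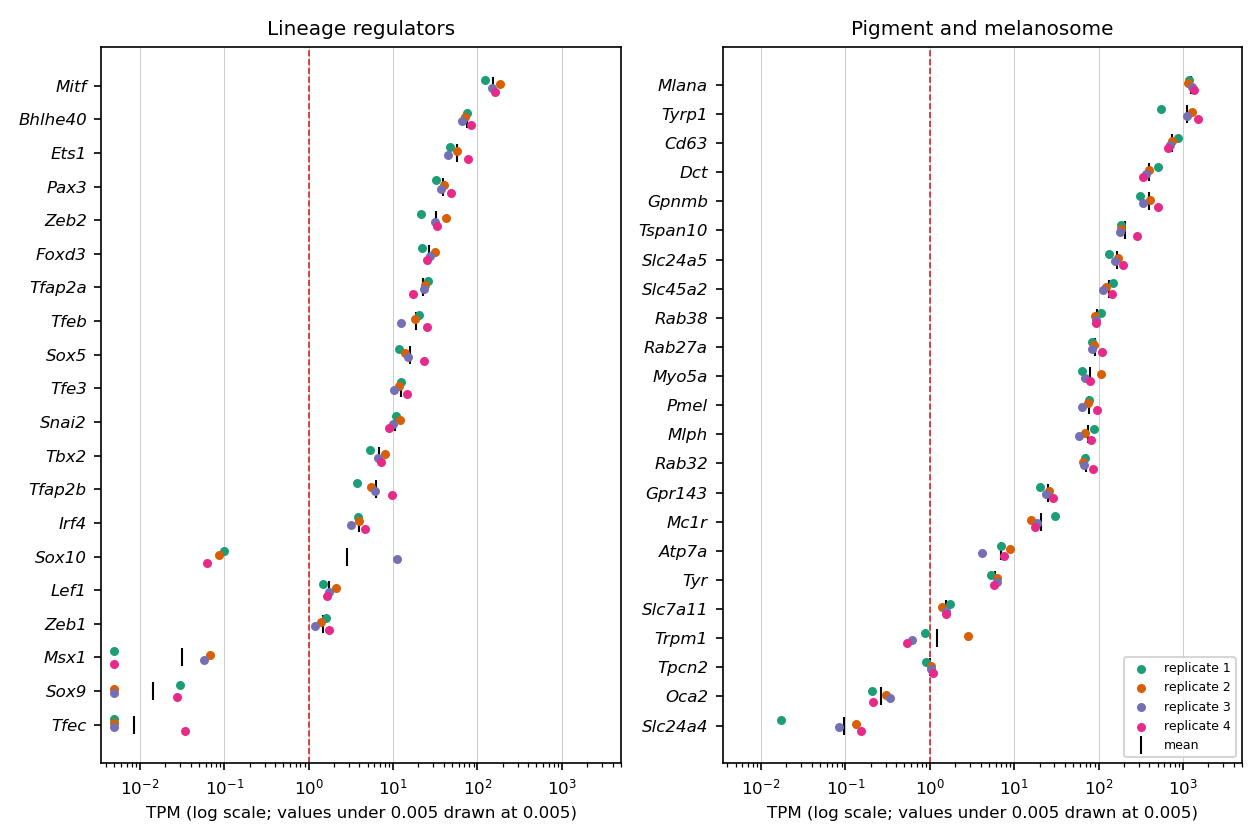
TPM in each parental library (coloured points, log scale) and the mean (black tick) for selected lineage regulators on the left and selected pigment and melanosome genes on the right. Values under 0.005 TPM are drawn at 0.005 and the dashed line is 1 TPM. Mitf leads the regulators at 154 TPM, Sox10 is high in replicate 3 alone, and Tyr at 5.88 TPM lies far left of Mlana and Tyrp1.

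Of 23 lineage regulators, 17 were on by the mean (73.9%, beside 49.6% of all protein-coding rows). This counts Sox10, and 16 were on by the median, in every library, or without replicate 3. After Mitf came Bhlhe40, a MITF target and repressor (74.5 ± 8.16 TPM), Ets1 (56.8 ± 15.1 TPM) and Pax3. Pax3, which marks the lineage from the crest onward, was at 32.4, 39.9, 37.0 and 48.1 TPM (39.4 ± 6.59). Foxd3, which holds crest cells back from the melanocyte fate in the embryo, was also on in every library, at 22.3, 31.4, 27.2 and 25.2 TPM. Tfap2a (22.7 ± 3.96 TPM) exceeded Tfap2b (6.26 ± 2.53 TPM), both of which work with MITF on shared targets. Among the relatives of Mitf, Tfeb was at 18.9 and Tfe3 at 12.3 TPM with overlapping ranges, both under the lowest Mitf library, and Tfec was off at 0.0086 TPM.

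Switch genes of the epithelial to mesenchymal programme differed in level. Zeb2 was at 21.4, 42.8, 31.2 and 32.8 TPM and its relative Zeb1 at 1.62, 1.40, 1.18 and 1.74 TPM, without overlap. Snai2 was on at 10.5 ± 1.27 TPM and Snai1 off at 0.0598 TPM. Lef1, a nuclear partner of beta-catenin, was low at 1.75 ± 0.266 TPM, and Irf4, a regulator of Tyr, was at 3.91 ± 0.579 TPM. Off were, among others, Sox9 (0.0143 TPM) and Msx1 (0.0312 TPM), while Msx2 and Otx2 were listed at 0 in all 4 libraries.

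Of 28 neural crest and melanocyte stem cell genes, 18 were on (64.3%, beside 49.6% of all protein-coding rows). Vim, the mesenchymal intermediate filament, was the highest at 2428 ± 167 TPM. Next came Id2 (687 ± 101 TPM), Dct (400 TPM) and Id3 (216 ± 55.1 TPM), of which Id2 and Id3 are inhibitors of differentiation. Sox2 was low but on in every library, at 3.83, 6.73, 6.29 and 3.53 TPM, as was Nes (9.20 ± 1.49 TPM). Among the 10 members off were Cd34 at 0.641 TPM, Lgr5 at 0.275 TPM and Ngfr, the neurotrophin receptor of crest cells, at 0, 0.0364, 0 and 0 TPM. Twist1, Aldh1a2, Cd36 and Edn3 were listed at 0. An exact 0 calls for care in these files, since Idh3a, a citrate cycle subunit that every cell uses, is listed at 0 in all 4 libraries.

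Growth factor and guidance receptors were on for 43 of 74 (58.1%), beside 49.6% of all protein-coding rows. Kit led them, and among the next were Ddr1, a collagen receptor (81.3, 107, 85.5 and 113 TPM), Axl, the GAS6 receptor (80.1, 104, 69.9 and 84.3 TPM), and Met, the HGF receptor (66.8, 86.9, 67.6 and 108 TPM). The order among these is not settled, because in none of the 42 pairs of receptors next to each other in the order were the ranges apart. Kit nevertheless exceeded Met in all 4 libraries (1.21 to 1.36 times) and Axl in all 4 (1.09 to 1.59 times). Axl exceeded Tyro3 2.70 times and Tyro3 exceeded Mertk 12.6 times by mean. Erbb3, the neuregulin receptor of the crest (45.8 ± 6.98 TPM), exceeded Erbb2 3.90 times, while Egfr was off at 0.011 TPM.

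The FGF receptors fell into a clear order. Fgfr1 was at 46.2, 45.9, 36.4 and 48.9 TPM, Fgfr2 at 27.4, 32.3, 25.1 and 32.9, and Fgfr3 at 7.76, 12.8, 10.3 and 11.6, with no overlap between them. Fgfr4 was off (0.00472 TPM). The Wnt side was represented by Fzd7 (53.8 ± 11.5 TPM) with both co-receptors, Lrp5 (32.2 TPM) and Lrp6 (23.7 TPM), whose ranges overlapped. Smo, the signal transducer of Hedgehog, was at 82.9 ± 11.5 TPM, and its inhibitor Ptch1 at 8.02 TPM. For TGF-beta, Tgfbr2 (62.2 ± 13.7 TPM) was above Tgfbr1 (10.6 TPM).

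Ednrb, the endothelin receptor through which melanoblasts expand in the embryo, was listed at 0 in all 4 libraries. That 0 calls for the same care as the one of Idh3a. Ednra was at 0.00431 TPM. The receptors of insulin and IGF1 were low but on, Insr at 6.90 ± 1.65 TPM and Igf1r at 3.94 ± 0.722 TPM. Nearest to the limit were Fzd5 inside (1.03 TPM) and Ddr2 (0.995 TPM) and Ntrk3 (0.978 TPM) outside.

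Fewer ligands than receptors were on, 10 of 39 (25.6%), under the 49.6% of all protein-coding rows. Pdgfa was highest at 53.2, 60.9, 52.6 and 66.8 TPM, and Gas6, which binds AXL and TYRO3, was at 63.1, 51.4, 49.7 and 62.7 TPM. The ranges of the pair overlapped, and no other ligand reached either. Fgf1 followed at 25.1 ± 5.03 TPM, then Csf1 (20.7 ± 2.82 TPM), Vegfa (13.9 ± 1.05 TPM) and Pdgfb (12.7 ± 2.4 TPM). The genes for both factors added to the medium were not on: Kitl, which encodes SCF, was at 0.109, 0.0834, 0.0543 and 0.0643 TPM, and Fgf2 was listed at 0. Hgf, Nrg1 and Edn3, ligands of MET, ERBB3 and EDNRB, were also listed at 0. As with Idh3a, such a 0 does not by itself show that a gene is silent.

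**Figure D3:**
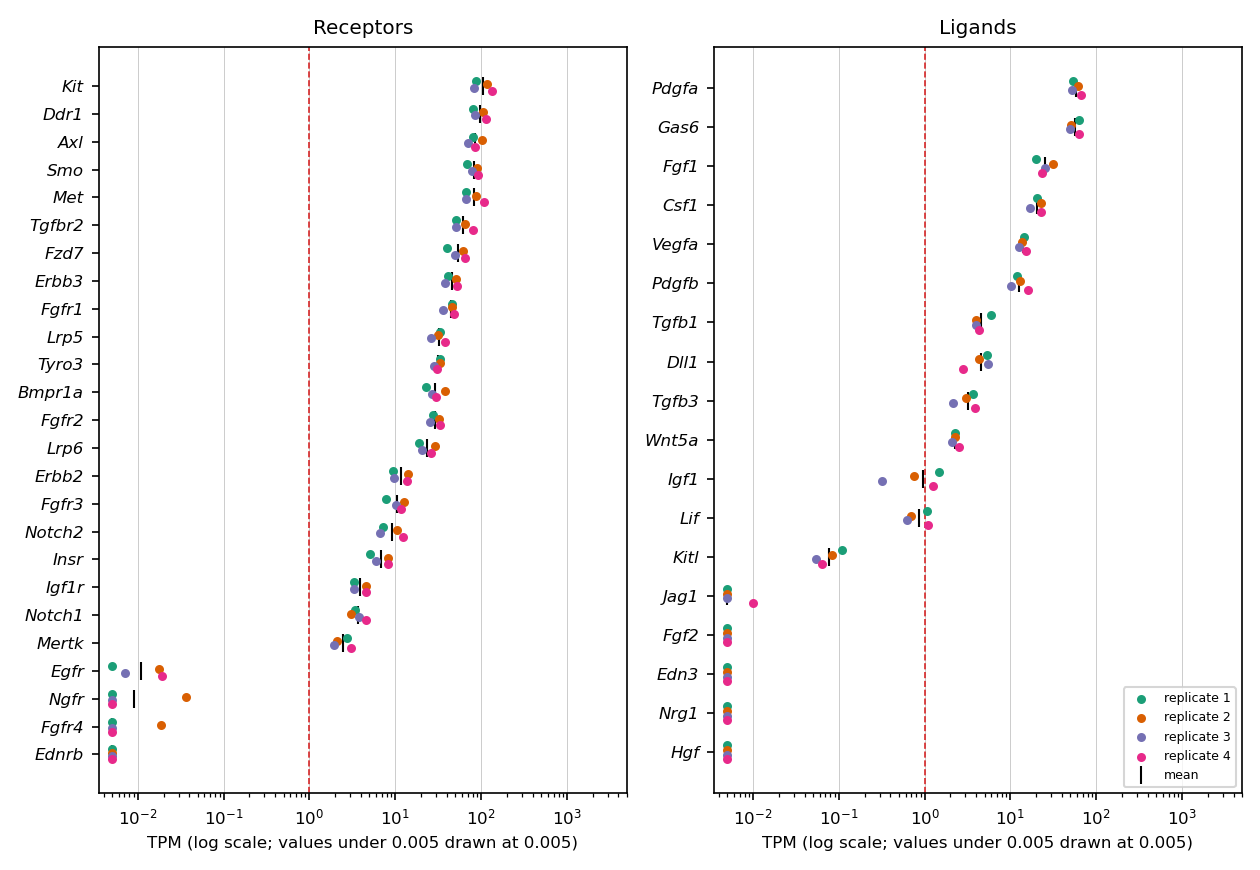
TPM in each parental library (coloured points, log scale) and the mean (black tick) for selected receptors on the left and ligands on the right. Values under 0.005 TPM are drawn at 0.005 and the dashed line is 1 TPM. Kit, Ddr1, Axl, Smo and Met overlap near 100 TPM, Ednrb sits at the floor, and Kitl, Fgf2, Edn3, Nrg1 and Hgf lie left of the line.

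Genes that report FGF and MAPK signalling were on for 17 of 20 (85%, beside 49.6% of all protein-coding rows). Myc (89.2 ± 11.9 TPM), the phosphatase Dusp4 (75.9 ± 20.0 TPM) and Ccnd1 (54.9 ± 7.11 TPM) were highest. The ERK phosphatase Dusp6 was at 33.9, 19.3, 21.7 and 21.9 TPM and the ETS factor Etv5 at 14.5, 5.50, 4.95 and 3.06 TPM, both highest in replicate 1. Without replicate 1 the Etv5 mean was 4.50 TPM in place of 7. Other genes share 30.3% of the 31-base words of Etv5. Fos was low (2.43 TPM), Spry4 (0.275 TPM) and Dusp5 (0.915 TPM) were off, and Fosl1 was listed at 0.

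Of 32 collagen genes, 14 were on (43.8%), beside 49.6% of all protein-coding rows. Col16a1, a collagen associated with fibrils, was at 121, 110, 101 and 99 TPM (108 ± 9.88), 2.61 times the mean of Col14a1 (41.3 ± 12 TPM). The main fibrillar collagens of connective tissue were low or off, with Col1a2 at 8.41 TPM, Col1a1 at 0.179 and Col3a1 at 0.00729. Basement membrane collagen chains Col4a1 (0.0796 TPM) and Col4a2 (0.400 TPM) were off, and Col4a3 was on at 9.56 TPM.

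Other matrix genes were on for 24 of 48 (50%), close to the 49.6% of all protein-coding rows. The highest were the protease inhibitor Timp2 (241, 269, 251 and 325 TPM), the matricellular Sparc (256, 234, 210 and 299 TPM) and Spp1, osteopontin (253, 267, 265 and 210 TPM). These 3 overlapped, and Fbln1 followed at 146 ± 43.7 TPM. Laminin chains were on as Lamb2 (43.1 TPM), Lamc1 (38.5 TPM), Lama4 (20.3 TPM) and Lama5 (7.07 TPM). Lamb1, the other common beta chain, was at 0.112, 0.181, 0.130 and 0.815 TPM, and Lamb2 exceeded it in each library. Without replicate 4 the Lamb1 mean was 0.141 TPM in place of 0.310. The membrane protease Mmp14 (96.5 ± 16.1 TPM) and its substrate Mmp2 (28.8 ± 6.39 TPM) were both on, and Mmp9 was off at 0.127 TPM.

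Adhesion receptors were on for 23 of 39 integrins, cadherins and related genes (59.0%), beside 49.6% of all protein-coding rows. Itgb1 was at 162, 254, 215 and 212 TPM and its laminin-binding partner Itga6 at 71.2, 112, 89.7 and 92.4 TPM. Their ratio hardly moved, from 2.27 to 2.4 in single libraries. The mesenchymal cadherin Cdh2 (54.9 ± 17.0 TPM) exceeded the epithelial Cdh1 (5.08 ± 0.801 TPM) 10.8 times by mean, and Cdh1 was on in every library. Cdh11 was listed at 0, and Itga4 was off at 0.11 TPM.

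In energy metabolism the mRNAs of some isozymes were on and of others off, and several isozymes of the same step were on together. Of 36 genes of glycolysis and sugar transport, 23 were on (63.9%, beside 49.6% of all protein-coding rows). Highest were Gapdh (4276 ± 719 TPM), Aldoa (1329 ± 194 TPM) and Eno1 (908 TPM), followed by Pkm (859 ± 118 TPM). Hk1 was at 152, 131, 96.5 and 174 TPM against 17.2, 18.4, 15 and 21.6 for Hk2, a ratio of means of 7.68. Ldha (731, 485, 504 and 578 TPM) exceeded Ldhb (373, 398, 433 and 440 TPM) without overlap. Pfkl exceeded Pfkp 4.83 times, while Pfkp and Pfkm could not be ordered (51.2 and 51.0 TPM). Of the glucose transporter genes listed, Slc2a1 alone was on (21.9 ± 2.72 TPM), with Slc2a3 at 0.714 TPM. Gapdh shares 28.1%, Eno1 28.5% and Pkm 34.7% of their 31-base words with other genes. For Ldha this was 19.6% and for Ldhb 33.0%, so the order of the Ldha and Ldhb levels is uncertain.

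Citrate cycle, glutamine and serine genes were on for 39 of 43 (90.7%, beside 49.6% of all protein-coding rows). Mitochondrial forms led: Idh2 (637 ± 98.7 TPM) exceeded the cytosolic Idh1 11.9 times, and Shmt2 exceeded Shmt1 5.13 times. In serine synthesis Psat1 (124 ± 23.0 TPM) and Psph (58.4 ± 4.29 TPM) were on, whereas Phgdh, the first enzyme of that path, was at 0.103, 0.0497, 0.0982 and 0.129 TPM. Other genes share 56.3% of the 31-base words of Phgdh, so its low level is uncertain.

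Respiratory chain isoforms were on for 18 of 32 (56.25%), beside 49.6% of all protein-coding rows. Those off were mainly forms known from muscle, testis or brown fat. Cox4i1 was at 2993, 2407, 2453 and 2401 TPM against a mean of 0.0538 for Cox4i2. The nucleotide carrier Slc25a4 exceeded Slc25a5 1.57 times without overlap. Slc25a5 shares 49.4% of its 31-base words with other genes and Slc25a4 0%, so this order is uncertain. Ppargc1a, a coactivator of mitochondrial genes that MITF is known to act on, was at 9.87, 21.5, 15.6 and 21.1 TPM. All 13 mitochondrially encoded mRNAs were on, from mt-Atp8 at 1534 TPM to mt-Atp6 at 20491 TPM. Over 50% of the 31-base words of 7 of these 13 occur in other genes as well, 99.5% for mt-Atp6, so their levels are uncertain. Lipid and sterol synthesis was on for 33 of 38 (86.8%, beside 49.6% of all protein-coding rows). Highest were the desaturase Scd2 (296 ± 55.8 TPM), which exceeded Scd1 2.62 times, and Fdps (211 ± 48.0 TPM). Fads2 was off at 0.104 TPM beside Fads1 at 70.0 TPM.

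Cell cycle genes were on for 30 of 32 (93.75%, beside 49.6% of all protein-coding rows). Cdk4 was at 681, 666, 595 and 756 TPM and its relative Cdk6 at 3.31, 3.83, 3.01 and 4.63 TPM, a ratio of means of 182. Of the D cyclins, Ccnd3 (366 ± 32.6 TPM) exceeded Ccnd1 6.67 times, and Ccnd1 exceeded Ccnd2 1.53 times. Cdkn2a, the locus of the cell cycle inhibitors p16 and ARF, was at 199, 174, 178 and 206 TPM, and gene-level values do not tell these products apart. Its neighbour Cdkn2b was at 2.19 ± 0.346 TPM and the p53 target Cdkn1a at 6.47 ± 1.12 TPM, while Trp53 itself stood at 67.1 ± 12.1 TPM. Proliferation markers were on, with Top2a at 169 ± 26.2 TPM and Mki67 at 54.2 ± 12.4 TPM. Off were Tert (0.593 TPM) and Cdkn1c (0.0962 TPM).

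All 12 genes listed for HIRA, H3.3 and histone chaperones were on (100%, beside 49.6% of all protein-coding rows). The list also counts subunits of CAF-1, which is not an H3.3 chaperone. Hira was at 46.7, 52.7, 44.9 and 62.8 TPM. Both genes that encode H3.3 were high, and H3f3a (1477 ± 177 TPM) exceeded H3f3b (337 ± 38.9 TPM) 4.06 to 4.59 times in single libraries. Partners of HIRA were lower, with Cabin1 at 8.80, Ubn2 at 6.92, Asf1a at 3 and Ubn1 at 2.6 TPM. Other genes share 43.1% of the 31-base words of Hira, 44.9% of those of Asf1a and 30% of those of H3f3a.

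**Figure D4:**
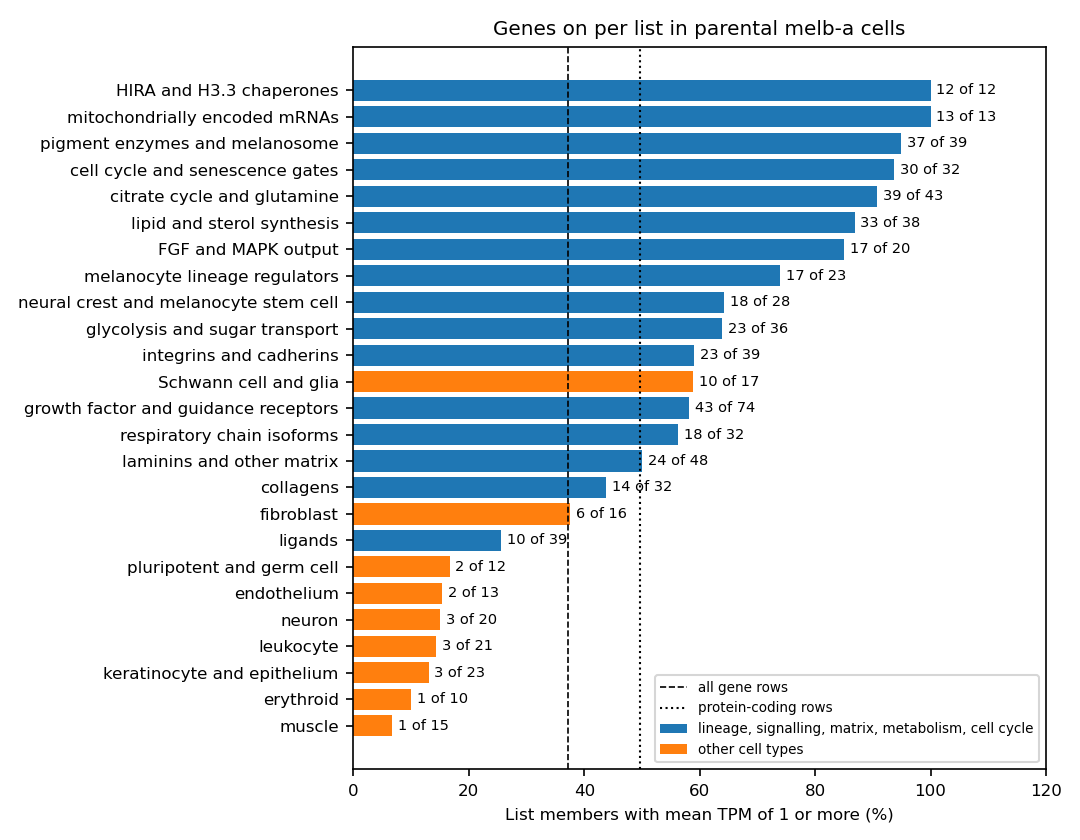
Share of each gene list with a mean of 1 TPM or more in parental cells (bars, percent), with the count of members on beside each bar. Vertical lines mark all gene rows (37.2%) and protein-coding rows (49.6%). Blue bars hold the lineage, signalling, matrix, metabolic and cell cycle lists, and orange bars the markers of other cell types, of which the Schwann cell and glia list is the fullest at 10 of 17.

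Markers of other cell types were mostly off, and each count that follows is to be read beside 49.6% of all protein-coding rows. In bulk RNA, a few cells with a high level and many cells with a low one cannot be told apart. Of 17 Schwann cell and glia genes, 10 were on (58.8%, beside 49.6% of all protein-coding rows), with a summed level of 382 to 501 TPM per library. S100b, also known from melanocytes, was at 195, 205, 226 and 159 TPM, and Mbp, a myelin protein gene, at 87.8 ± 4.78 TPM. Pmp22 was off at 0.114 TPM and Olig2 was listed at 0. Erbb3 and Cdh19 stand in more than one list. Whether glial cells were present was not tested.

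Of 16 fibroblast genes, 6 were on (37.5%, beside 49.6% of all protein-coding rows). Their list had a summed level of 30.8 to 55.1 TPM, led by Dcn (15.8 ± 4.26 TPM) and Postn (10.8 ± 3.99 TPM), with Thy1 and Twist1 listed at 0. Neuron genes were on for 3 of 20 (17.5 to 26.7 TPM), led by Tubb3, with Snap25 and Stmn2 listed at 0. Keratinocyte and epithelial genes were on for 3 of 23 (14.1 to 18.1 TPM), led by Sfn, with Krt5 and Epcam listed at 0 and Krt14 at 0.0633 TPM. Leukocyte genes were on for 3 of the 21 with a row (10.1 to 14.3 TPM), led by Lyz2 at 7.28 TPM, with Ptprc at 0.0134 TPM.

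Endothelial genes were on for 2 of 13 (15.1 to 23.2 TPM). These were Vwf (16.1 ± 3.98 TPM) and Egfl7 (1.21 TPM), while Cdh5 was listed at 0 and Pecam1 was at 0.639 TPM. Egfl7 ran from 0.390 to 2.35 TPM and reached 1 TPM in 2 libraries, and without replicate 1 its mean was 0.823 TPM, which leaves Vwf alone on. Muscle genes were on for 1 of 15 (Acta2, 11.5 TPM; list total 11.4 to 15.5) and erythroid genes for 1 of 10 (Epor, 1.61 TPM; list total 2.28 to 2.86). Pluripotent and germ cell genes were on for 2 of 12 (Klf4 and Sox2; list total 9.94 to 12.5 TPM), with Pou5f1 at 0.0127 TPM. Over all lists together, 382 of 659 distinct genes with a row were on (58.0%), beside 49.6% of all protein-coding rows.

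The RNA pool was concentrated in few genes. The 30 genes of highest mean TPM comprised 10 mitochondrially encoded mRNAs, led by mt-Atp6, 10 ribosomal protein genes, led by Rplp1 at 6075 TPM, and 10 others. Among the others were Eef1a1, the elongation factor (8234 ± 435 TPM), the ferritin chains Ftl1 (6121 TPM) and Fth1 (4585 TPM), Tpt1 (5796 TPM), Ppia (4717 TPM), Gapdh, and the rows Gm29216, Rps12-ps3 and Gm28438. Gm29216, Rps12-ps3 and Gm28438 share 97.2%, 100% and 99% of their 31-base words with other genes, so their levels are not separable from those genes. The same holds in part for the named genes that lead: 75.1% of the words of Rplp1, 64.1% of those of Ftl1 and 51.5% of those of Eef1a1 are shared, and 12 of the 30 genes share over 50%. How reads were split among such copies was not tested, and the shares that follow carry that uncertainty. Mitochondrial mRNAs held 13.0 ± 2.11% of summed TPM (SD, n = 4) and ribosomal protein genes 15.1 ± 1.14%. The top 10 genes held 13.1 ± 1.84%, the top 100 held 38.8 ± 2.83% and the top 1000 held 71.0 ± 2.02%.

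The 4 libraries agreed closely for most genes. Among 7158 genes with a mean of at least 10 TPM and 100 counts, the coefficient of variation (SD over mean) had a median of 14.2%, with quartiles at 9.85 and 19.6%. It was under 20% for 76.3% of these genes and over 50% for 40 of them. Pearson correlations of log2(TPM + 1) between libraries ran from 0.970 to 0.978 across the 11147 genes on; genes are not independent replicates. edgeR's common dispersion, which takes out counting error, corresponds to a biological coefficient of variation of 18.4% over 11480 genes. Steadiest was Bcl7b, a subunit of a chromatin remodelling complex, at 45.2, 45, 45 and 45.3 TPM, a coefficient of variation of 0.345%.

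The 15 genes of highest variation were mainly pseudogenes by annotation. They include 12 so annotated, such as Rpl10a-ps1 at 111, 0.124, 0.000247 and 0.0252 TPM, and in 13 of the 15 over 50% of the 31-base words occur in other genes. Among all 6873 such genes with transcript sequence that share was 4.66%. The protein-coding members were the predicted gene Gm11808, Mrpl42, a mitochondrial ribosomal protein (0.000244, 35.1, 78.9 and 32.8 TPM), and Rps27 (244, 422, 0 and 194 TPM). Without replicate 3 the Mrpl42 mean was 22.6 TPM in place of 36.7, and without replicate 1 Rpl10a-ps1 was off at 0.0498 TPM. Rps13 followed further down at 203, 411, 979 and 1037 TPM. Myb, a transcription factor of progenitor cells, was at 11.1, 42, 34.6 and 18.0 TPM. The source of variation in single genes was not tested.

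**Figure D5:**
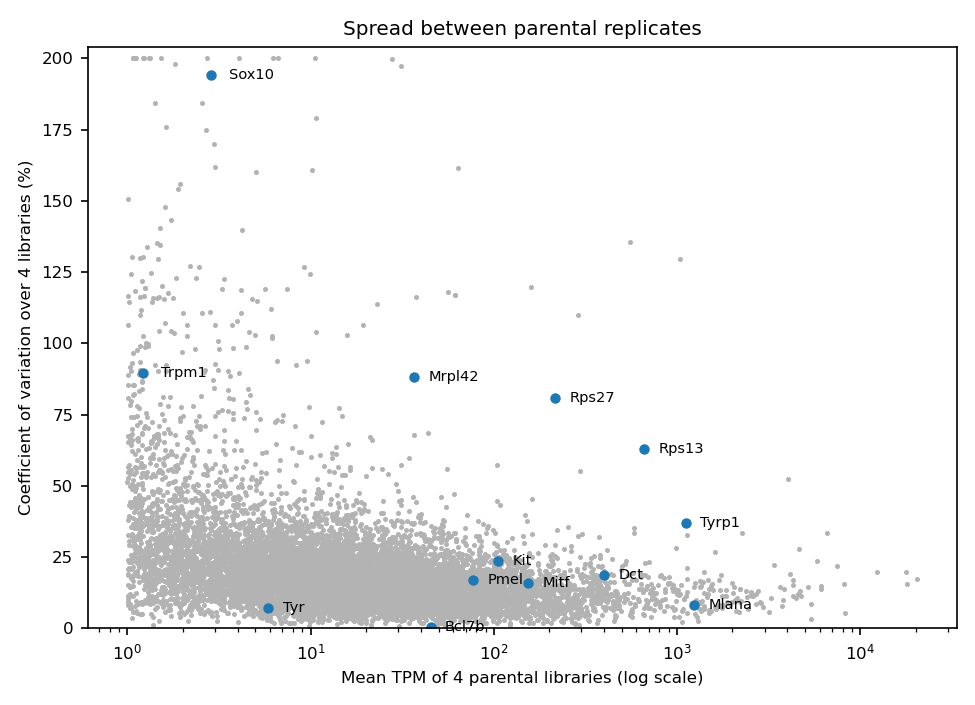
Coefficient of variation over the 4 parental libraries (percent) against mean TPM (log scale) for the 11147 genes on. Grey points are genes and blue points are named ones. Most genes lie low, Sox10 stands at 194% and Mrpl42 at 88.3%, Tyrp1 (36.8%) varies more than Dct (18.7%), Pmel (16.9%), Mitf (15.8%) and Tyr (7.24%), and Bcl7b lies at the bottom.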

How the data were processed

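Poly(A) libraries were made from parental melb-a cells with a directional kit, per the labels' protocols. The submitters' processing notes name kallisto, bcl2fastq and edgeR and the build mm10; for versions, annotation and strand setting nothing is given in the sources used here. The authors deposited TPM values per gene and estimated counts per gene (not whole numbers). Each deposited estimated count equals TPM times 1 length per gene and 1 factor per library, so shifts between isoforms do not enter. Deposited TPM summed to between 847920 and 852481 per library. Only the parental group lacks a hairpin, and the control columns whose names hold none were assigned to it; the 16 columns of other groups were not described. Spreadsheet dates stand in place of 27 gene names, and 28161 rows match GENCODE M21 symbols.

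A gene was on at a mean of 1 TPM or more. Ranges of 4 values that overlap count as not separated; no p-value is given, since 1 group allows no contrast. Spread used genes of at least 10 TPM and 100 counts. edgeR 4.0.16 (R 4.3.3) gave the dispersion from estimated counts rounded to whole numbers, checked on simulated data. Shared sequence was measured as 31-base words of GENCODE M21 transcripts found in more than 1 gene; promoters came from RefSeq (GRCm38.p6). Alternatives covered the limit, scaling, filters and each left-out library. Named were the 5 markers, the 30 highest genes, the 15 most and 10 least variable, and each list's highest, lineage-defining off and limit members; Rps13, Myb and the genes of the other observations were chosen after their values were seen. Some listed genes are not reported here. The members and lists were chosen with earlier results of these data known.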

Additional observations from a re-analysis of the deposited data

Results flagged for a closer look

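In each of these genes 1 library lay far from the other 3, whose values were close together; chance alone does this in about 1 in 20 groups, and 8 of the 168 measures tested (4.76%) did so. Sox10 was at 11.2 TPM in replicate 3 against 0.0630 to 0.0995 TPM in the others. Trpm1 was at 2.84 TPM in replicate 2 against 0.541 to 0.875 TPM. Tspan10, a melanosome tetraspanin, was at 281 TPM in replicate 4 against 178 to 186 TPM. The other 5 were high in replicate 1. Rab38 was at 106 TPM there against 91.0 to 93.3 TPM, and Tgfb1 at 5.92 TPM against 3.97 to 4.26 TPM. Cox4i1 was at 2993 TPM against 2401 to 2453 TPM, Tubb3 at 22.3 TPM against 14.0 to 14.5 TPM, and Ptgds at 1661 TPM against 1464 to 1487 TPM. The 168 measures were 158 genes and 10 library measures, whereas the text names 235 genes. Lamb1 and Hoxa9, both highest in replicate 4, were not among the 158.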

How the results depend on the processing

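No paired analysis was possible because the results come from 1 group and from no test. The count of genes on ran from 10269 (mean of 2 TPM) to 12066 (mean of 0.5 TPM) over the alternatives and from 11124 to 11162 with 1 library left out; listed genes on ran from 352 to 413, and from 380 to 384 with 1 left out. Sox10 lost its state on by the median, in the count of every library, and without replicate 3; Trpm1 did so by the median, in every library and without replicate 2; Tpcn2 in every library and without replicate 4. Of listed genes on, 30 were off at 2 TPM and 20 when every library had to pass. Genes named in the text that were off at 2 TPM were Lef1, Slc7a11, Zeb1, Trpm1, Tpcn2, Egfl7, Fzd5, Hoxa9 and Epor, the last leaving 0 erythroid genes on; Egfl7, Fzd5, Hoxa9, Gm11808, Mrpl42, Rpl10a-ps1 and Rps27 also missed 1 TPM in at least 1 library. Of 179 named genes on, 6 moved over 1.5 times in level without 1 library: Sox10 (0.0832 TPM), Trpm1 (0.677 TPM without replicate 2), Etv5 (4.50 TPM without replicate 1), and Mrpl42, Gm11808 (15.3 TPM without replicate 3) and Rpl10a-ps1; of 56 named genes off, 17 did, such as Lamb1. The median coefficient of variation was 16.5% with genes from 1 TPM, 25.9% without a filter, and 12.5 to 14.2% with 1 library left out. The edgeR value was 23.7% without a filter and 17.4 to 19.9% with 1 library left out. Without mitochondrial mRNAs the top 10, 100 and 1000 genes held 7.61%, 31.8% and 67.0%; with 1 library left out they held 12.3 to 13.8%, 37.7 to 40.0% and 70.4 to 71.8%. Levels above 0 among the 158 genes rose 1.17 to 1.18 times with TPM rescaled to a total of 1e6 over the gene rows. With mitochondrial mRNAs left out before rescaling, the remaining levels rose 1.35 to 1.39 times. The spread with lower filters includes genes with few counts, and the cause of the other changes was not tested. Levels near 1 TPM rest on few counts, such as a mean of 51.7 for Tpcn2.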

Other observations

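The groups that follow were chosen after their values were seen. Positional genes were on in only some Hox clusters: 7 of 11 Hoxa genes and 3 of 10 Hoxb genes were at 1 TPM or more, with Hoxa10 (9.08 TPM) and Hoxb4 (4.4 TPM) highest, and none of 9 Hoxc or 9 Hoxd genes. Hoxa9 (0.718, 0.861, 0.807 and 1.86 TPM) passed through replicate 4 alone, and 6 Hoxa genes were on without it. Of 9 Pax genes, Pax3 alone was on. Guidance receptors of the plexin and neuropilin families were on for 8 of 11, led by Plxnb2 at 79.6 TPM. Semaphorins, their ligands, were on for 12 of 20, led by Sema3b at 106, 158, 121 and 132 TPM. Among all protein-coding rows 49.6% were on.

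Outside the lists, Ptgds, which makes prostaglandin D2, had a mean of 1523 ± 92.9 TPM (SD, n = 4), above Mlana. S100a4, a calcium-binding protein, was at 895, 861, 1106 and 1663 TPM and the lysosomal protease Ctsd at 1033 ± 125 TPM. The transcription regulators Eya1 and Foxf1 were on in every library, Eya1 at 62.3, 84.6, 72.4 and 122 TPM, and Foxf1 at 18.7, 26.5, 26.6 and 35.3 TPM. None of 5 Y-linked genes was on, with Kdm5d highest at 0.462 TPM.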
